A study of Rattus norvegicus with 34 samples.

Results

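The comparison described here is the monuron difference in rat liver set against the monuron difference in rat kidney. It uses the 16 tissue arrays of the 34 samples in the series, chosen by their labels: 4 liver arrays labelled MON (monuron), 4 liver control arrays, 4 kidney arrays labelled MON and 4 kidney control arrays. All samples came from male Wistar-derived rats bred at Liverpool John Moores University, aged 7 to 9 weeks and weighing 190 to 240 g. Per the protocol, the MON group of 4 rats was given monuron in corn oil (5 ml/kg), 40 mg/kg to begin with and then 400 mg/kg on both of the days that followed. The control group of 4 rats received corn oil alone. The sample labels and the series title give 72 h, while the protocol places the killing 72 h after the last dose. The protocol describes removal of liver and kidneys from the 8 rats, but no label ties a liver array to a kidney array, and the arrays were treated as separate samples.

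Monuron is a phenylurea herbicide. Liver and kidney share much of the machinery that handles foreign compounds. The aryl hydrocarbon receptor (AhR) switches on Cyp1a1, the receptors CAR and PXR switch on other cytochrome P450 and conjugating enzymes, and NRF2 switches on antioxidant enzymes when reactive compounds accumulate. The organs differ in their main cells: hepatocytes make plasma proteins and bile acids, and proximal tubule cells take filtered solutes back into the blood. Injured proximal tubule cells are known to make Havcr1 (KIM-1) and to re-enter the cell cycle.

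Expression is given as the authors' GCRMA values, on the log2 scale, with 1 probe set standing for each gene. Each gene has an organ difference and an organ contrast. The organ difference is the mean of the 4 MON arrays minus the mean of the 4 control arrays of that organ, and the contrast is the liver difference minus the kidney difference. A positive contrast means that the MON arrays stood higher against their controls in liver than in kidney, and a negative one the reverse. A gene is called where the adjusted p of limma is under 0.05, and "rose", "fell" and "changed" are used of called differences alone. Levels were not compared between organs. A gene is near background in an organ where both of its group means lie below the mean of the array medians there (3.71 in liver, 3.92 in kidney). For such genes a limited contrast is also given, in which values under an array's median were raised to that median. Pearson's r between arrays of 1 group was 0.992 to 0.996 across probe sets. Each tissue matched its label: the albumin gene Alb was at 16.27 to 16.34 in all liver arrays, and the hepatocyte gene Apoa1 was at 2.31 to 2.36 in all kidney arrays. Because the samples are whole organs, fewer cells of a type and less RNA per cell cannot be told apart.

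A point about the labels applies to every direction below. Genes that toxic compounds are commonly known to raise, such as Havcr1 in kidney and Cyp1a1 in liver, were lower in the arrays labelled MON. Whether the MON and control labels of the tissue arrays are the right way round was not tested. Exchanging them in both organs would turn the sign of every difference and contrast and would leave sizes, standard errors and p-values as they are.

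Of 10114 genes tested, 271 (2.68%) had a called contrast, 110 of them positive (1.09%) and 161 negative (1.59%), and 130 had a contrast of at least 1 in size. In liver alone 209 genes were called (2.07%, 74 higher and 135 lower), and in kidney 920 (9.1%, 347 higher and 573 lower). Most called contrasts came with a call in kidney and none in liver: 152 of 271, of which 74 fell in kidney (positive contrast) and 78 rose there (negative contrast). A call in liver and none in kidney accompanied 55, of which 16 rose and 39 fell in liver. Both organs were called for 5 and neither for 59. These organ calls use the spread within each organ. By size alone, without regard to calls, the kidney difference was the larger in 75 of the 110 positive contrasts. It was the larger in 81 of the 161 negative ones. The counts of calls rested in part on single arrays. The count of 271 moved to 153 without kidney MON replicate 3, 143 or 175 without kidney control replicate 3 or 4, 178 without liver control replicate 1, and 502 without liver control replicate 3. The liver count was the least stable: it was 23, 111 or 51 without liver MON replicate 1, 2 or 3, 25, 45 or 35 without liver control replicate 1, 2 or 4, and 423 without liver control replicate 3. The kidney count was 534 or 345 without kidney MON replicate 1 or 3, and 613, 321 or 562 without kidney control replicate 2, 3 or 4. With the spread estimated over all 16 arrays, 1160 genes were called in liver and 800 in kidney, so the larger count was then in liver. The split of the 271 contrasts by organ call was not repeated with that spread, and may depend on the choice. The contrasts take the 16 arrays as separate samples. With a block for each treatment and replicate number over both organs, 193 contrasts were called, and 158 of the 271 were among them.

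**Figure D1:**
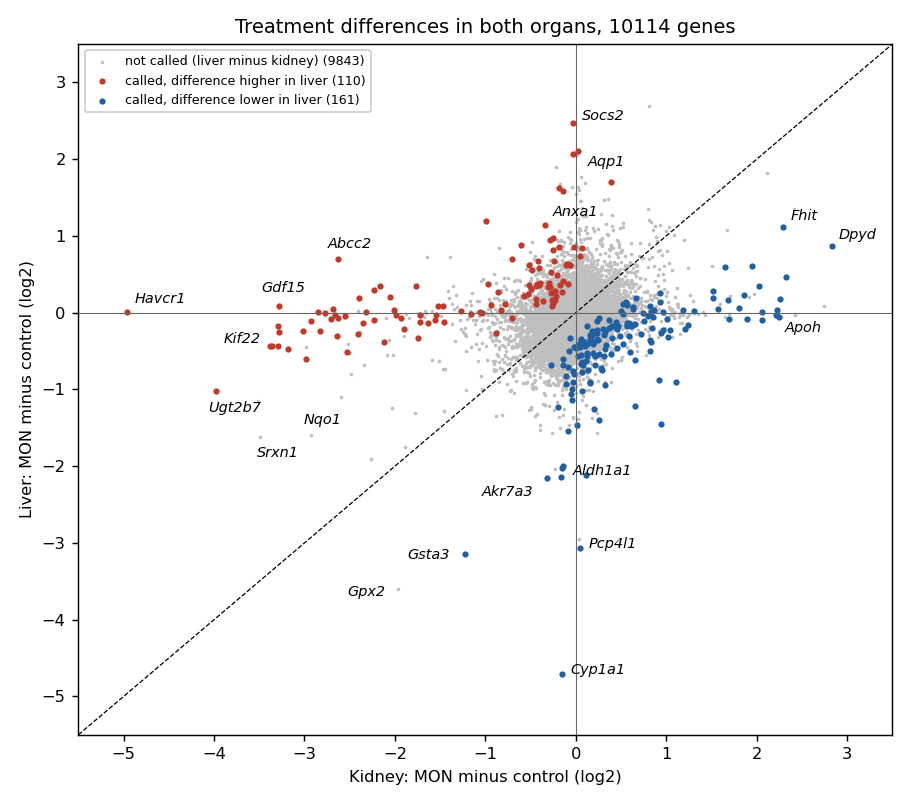
Each point is 1 of 10114 genes, with its MON minus control difference in kidney on the horizontal axis and in liver on the vertical axis, both on the log2 scale. Red points are the 110 genes with a called positive contrast and blue points the 161 with a called negative contrast. The red points reach far to the left along the horizontal axis, where the kidney difference is large and the liver difference near 0, the blue points reach downward and to the right, and the dashed line marks equal differences in both organs.

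A share of these contrasts involved genes that 1 organ hardly expressed. Near background in liver alone were 43 of the 271 genes and in kidney alone 11, together 19.9%, against 12.3% of all genes tested. With limited values 280 genes were called (2.77%), and 254 of the 271 stayed called with the same sign. Those still called were 212 of the 217 that were near background in neither organ, 33 of the 43 near background in liver and 9 of the 11 near background in kidney. Of the 271 genes, 27 passed the filter on dim probe sets through their kidney control arrays (without these arrays fewer than 4 would have lain above the median), and such a gene had to differ between the kidney groups. Among them are Havcr1, Gdf15, Cdc20, Prc1, Racgap1, Kif20a, Knstrn, Dlgap5, Cdt1, Gmnn and Maff, and Ccser1 passed through its kidney MON arrays, so their values are given below as a description, without p-values. Another probe set was tested for 44 of the 271 genes. Of those 59 probe sets, 56 had a contrast of the same sign and 44 reached at least 50% of the reported size. The 3 with the opposite sign belonged to Aqp1, Cbl and Fam120b.

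The largest positive contrast was in Havcr1, a membrane receptor of injured proximal tubule cells. It was at 8.11, 5.98, 7.23 and 6.62 in the kidney control arrays and at 2.05, 2.01, 2.03 and 2.02 in the kidney MON arrays. The groups lay far apart in kidney, and all 8 liver arrays stood at the floor of the scale, between 2.04 and 2.10. Havcr1 passed the filter through its kidney control arrays alone. The contrast was 4.97 (SE 0.42), and 3.10 with limited values, as both the liver values and the kidney MON values were near background. Gdf15, a secreted stress cytokine, was at 6.58, 5.97, 7.80 and 7.46 in kidney control and at 3.82, 3.01, 3.38 and 4.46 in kidney MON. Its 8 liver values ran from 2.40 to 2.62 without a visible shift, and the contrast was 3.36 (SE 0.47, limited 2.93). Tnfrsf12a, the receptor for TWEAK, had a contrast of 2.53 (adjusted p = 0.0426) and fell by 2.23 in kidney, but its contrast was not called without any 1 array other than kidney MON replicate 4, kidney control replicate 2, liver MON replicate 2 and liver control replicate 3 (adjusted p up to 0.0991).

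The list of kidney tubule injury markers was mixed. Of its 37 tested members, 8 fell and 2 rose in kidney (5.67% and 3.43% of all genes tested) and 1 fell and 2 rose in liver (1.33% and 0.732% of all). The contrast was positive for 3 and negative for 0 (1.09% and 1.59% of all). Of the 33 members that passed the filter without any 1 group, 2 had a called contrast. The median contrast of the 37 was 0.49, against -0.0048 over all genes, and 12 members were near background in liver alone. Without kidney MON replicate 3 the 8 became 5, and the 3 positive contrasts became 0 without kidney control replicate 3 and 1 without any 1 of kidney MON replicates 1 and 3, kidney control replicate 1, liver MON replicates 1 and 3, and liver control replicates 1, 2 and 4. Beside Havcr1 and Tnfrsf12a, the matricellular gene Ccn1 fell in kidney by 1.60 (adjusted p = 0.00315). Lcn2, the lipocalin NGAL and another marker of tubule injury, had a kidney difference of -1.39 (adjusted p = 0.107).

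Genes of mitosis made up the largest group with a contrast. Of the 61 list members on the array, tested with no filter on dim probe sets, 40 fell in kidney and 0 rose, against 3.07% of 14217 genes that fell, and 0 were called in liver. The contrast was positive for 22 of the 61 and negative for 0, against 0.661% of genes with a positive one. Among the 44 members that passed the filter, 39 fell in kidney (5.67% of all genes tested fell) and 23 had a positive contrast (1.09% of all). Their median difference was -2.35 in kidney and -0.21 in liver, beside -0.068 and -0.062 over all genes. In liver, 18 of the 44 were near background, and 14 of the 44 passed the filter through the kidney control arrays. Of the 30 others, 25 fell in kidney and 11 had a called contrast. Without kidney control replicate 3 the 23 became 14 and the 39 became 26.

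Among the genes that run mitosis, Kif22, a kinesin that moves chromosome arms, was at 7.90, 6.99, 7.95 and 7.15 in kidney control and at 4.07, 4.17, 3.86 and 4.70 in kidney MON. Its liver values were 3.84, 3.84, 4.09 and 4.00 in control and 3.85, 3.67, 3.85 and 3.68 in MON. The kidney groups were thus separated by more than 2 units with no overlap, and the liver groups overlapped (contrast 3.12, SE 0.31, adjusted p = 7.66e-05, limited 3.11). Cdc20, which activates the ubiquitin ligase that starts anaphase, was at 6.77, 5.30, 6.04 and 5.71 in kidney control and at 2.52, 2.36, 2.92 and 2.90 in kidney MON. In liver it was near background in all 8 arrays (2.14 to 2.90), so its contrast of 3.03 (SE 0.36) was 2.07 with limited values, and it too passed the filter through the kidney control arrays alone. Aurka, the Aurora A kinase of the spindle poles, was at 7.20, 5.86, 7.09 and 5.68 in kidney control and 4.02, 3.66, 3.30 and 4.30 in kidney MON. Its liver values ran from 4.04 to 5.05 with overlapping groups, and the contrast was 2.33 (SE 0.46, adjusted p = 0.012).

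Other parts of the division machinery had contrasts of similar size. The spindle midzone genes Prc1 and Racgap1 had contrasts of 2.92 and 2.56 (limited 2.92 and 2.57), the kinesin Kif20a 2.81 (limited 2.56), the kinetochore genes Knstrn, Cenpf and Cenpw 2.95 (limited 2.65), 2.14 and 2.14, and the securin gene Pttg1 2.38. Ccnb1, the cyclin of the mitotic kinase, had a contrast of 2.02 (adjusted p = 0.0354), which was not called without any 1 array other than kidney MON replicate 1, kidney control replicates 2 and 4, liver MON replicate 2 and liver control replicates 3 and 4 (up to 0.0858). The contrast of Dlgap5, a spindle gene near background in liver, went from 2.33 to 0.63 with limited values. Mki67, the usual marker of dividing cells, fell by 2.07 in kidney (adjusted p = 0.0151, and 0.0535 without kidney control replicate 3), while its contrast of 1.71 was not called (adjusted p = 0.117).

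Some genes that copy DNA also fell in kidney. Of 39 tested members of the replication list, 14 fell and 1 rose in kidney (5.67% and 3.43% of all genes). In liver 1 fell (1.33%), and the contrast was positive for 2 (1.09%). The median difference was -0.48 in kidney and -0.050 in liver. The 14 became 9 or 5 without kidney MON replicate 1 or 3, and 9, 3 or 9 without kidney control replicate 2, 3 or 4. The 2 contrasts were in Cdt1, which loads the replicative helicase (1.46, limited 1.33), and in its inhibitor Gmnn (2.27, limited 1.05). Both genes passed the filter through the kidney control arrays, and of the 35 other members 0 had a called contrast and 11 were called in kidney. Pcna, the sliding clamp, fell by 0.56 in kidney (adjusted p = 0.0205, not called without kidney MON replicate 3 or kidney control replicate 3) and its contrast of 0.59 was not called (adjusted p = 0.0625).

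Many promoters of mitotic genes are known to carry the cell cycle genes homology region (CHR), through which repressor and activator complexes set expression by cell cycle phase. The 250 bases upstream of the transcription start (RefSeq, GRCr8) were searched for its core letters, TTTGAA, on both strands. They were found for 19 of the 38 tested mitosis genes with a promoter entry, against 11.1% of the 8496 tested genes with one and 16.2% of all 33469 promoters. The match is a description of letters and no evidence of binding. The last 100 bases before the start are shown for 3 mitotic genes with large contrasts, on the strand of the gene, with the motif or its reverse complement in capitals. They lie at chr5:137255800-137255899 (Cdc20, minus strand), chr1:191080879-191080978 (Kif22, minus strand) and chr1:143659381-143659480 (Prc1, plus strand).
Cdc20: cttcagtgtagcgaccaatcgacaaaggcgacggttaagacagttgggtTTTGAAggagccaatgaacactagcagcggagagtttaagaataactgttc
Kif22: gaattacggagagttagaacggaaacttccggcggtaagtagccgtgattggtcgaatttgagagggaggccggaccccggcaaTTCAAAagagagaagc
Prc1: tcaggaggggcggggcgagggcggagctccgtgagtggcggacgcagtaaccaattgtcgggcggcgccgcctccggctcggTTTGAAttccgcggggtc
The motif began 51, 16 and 18 bases before the start in Cdc20, Kif22 and Prc1.

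Transporters and conjugating enzymes gave further large positive contrasts. Abcc2, the pump that exports conjugated compounds into bile and urine, was at 8.84, 8.02, 8.83 and 8.12 in kidney control and at 5.09, 5.82, 5.84 and 6.54 in kidney MON. In liver it leaned the other way, from 11.47, 11.60, 12.17 and 11.86 in control to 12.57, 12.13, 12.84 and 12.35 in MON, with groups that overlapped and no call (adjusted p = 0.0836). The contrast was 3.32 (SE 0.38, adjusted p = 0.000237), near background in neither organ. The cholesterol exporter Abca1 showed the same pattern: it was at 8.07, 8.15, 8.18 and 7.98 in kidney control and 6.63, 6.72, 5.72 and 4.63 in kidney MON, against 10.59 to 11 and 10.97 to 11.42 in liver (contrast 2.51, SE 0.45, adjusted p = 0.00613). Its kidney call ended without kidney MON replicate 3 or kidney control replicate 3 (adjusted p up to 0.0533), and its contrast was called in all 16 such fits. Ugt2b7, which attaches glucuronic acid to steroids and drugs, was at 12.46, 12.27, 12.75 and 12.56 in kidney control and at 7.84, 7.87, 8.31 and 10.08 in kidney MON (contrast 2.96, SE 0.58, adjusted p = 0.0115). In liver it leaned lower too, from 4.18, 3.85, 5.40 and 4.67 in control to 3.27, 3.44, 3.94 and 3.40 in MON, with overlapping groups. The liver MON values of 3.27, 3.44 and 3.40 lay below the mean of the liver array medians (3.71). As lists, conjugating enzymes and transporters were mixed. Of 45 tested GST, UGT and SULT genes, 9 fell and 1 rose in liver (1.33% and 0.732% of all genes), 4 fell and 2 rose in kidney (5.67% and 3.43%), and the contrast was positive for 2 and negative for 4 (1.09% and 1.59%). The 9 became 5 without liver MON replicate 1 and 4 without liver control replicate 1, and the 4 in kidney became 2 without kidney MON replicate 3 or kidney control replicate 2, 3 or 4 and 9 without kidney MON replicate 4. Of 35 transporters, 3 rose and 2 fell in liver, 5 rose and 2 fell in kidney, and the contrast was positive for 2 and negative for 5, beside the same shares of all genes. The 3 became 0 without liver MON replicate 1 or 3 or liver control replicate 1, 2 or 4. The 5 that rose in kidney became 2 without kidney MON replicate 3 and 3 without kidney control replicate 3 or 4. The 5 negative contrasts became 3 without any 1 of 10 arrays, 5 of each organ. Beside Abcc2, the positive one was in the organic anion importer Slc22a8 (0.68, adjusted p = 0.0125), and the carnitine importer Slc22a5 had a contrast of -1.66 (adjusted p = 0.0143). The UGT genes are a family of near-identical copies, so their probe sets may read more than 1 member.

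Of 20 tested transcription factors of the immediate early response, 6 fell in kidney (5.67% of all genes) and 0 were called in liver. The contrast was positive for 1 (1.09% of all genes), Maff (1.86, limited 1.82). Maff, a small Maf protein near background in liver, passed the filter through the kidney control arrays. Myc and Egr1 fell in kidney by 2.27 and 2.03. The 6 became 3 without kidney MON replicate 2, 3 or 4 or kidney control replicate 3 or 4. Of 22 p53 target genes, 6 fell in kidney and 1 in liver (5.67% and 1.33% of all genes), among those in kidney Cdkn1a, the p21 cell cycle inhibitor (-1.47, adjusted p = 0.011), whose contrast of 0.74 was not called (adjusted p = 0.418). Of 39 cytosolic ribosomal protein genes, 9 fell in kidney by small amounts (median of the list -0.17; 5.67% of all genes fell) and 0 were called in liver. The positive contrast of 2 of the 39 (1.09% of all genes) did not last. The count was 0, 1, 4 or 5 in each fit that left out 1 array, and 0 with centred arrays, no filter or no mean-variance trend. Those 9 became 3, 5 or 1 without kidney MON replicate 1, 2 or 3 and 3 or 2 without kidney control replicate 3 or 4.

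**Figure D2:**
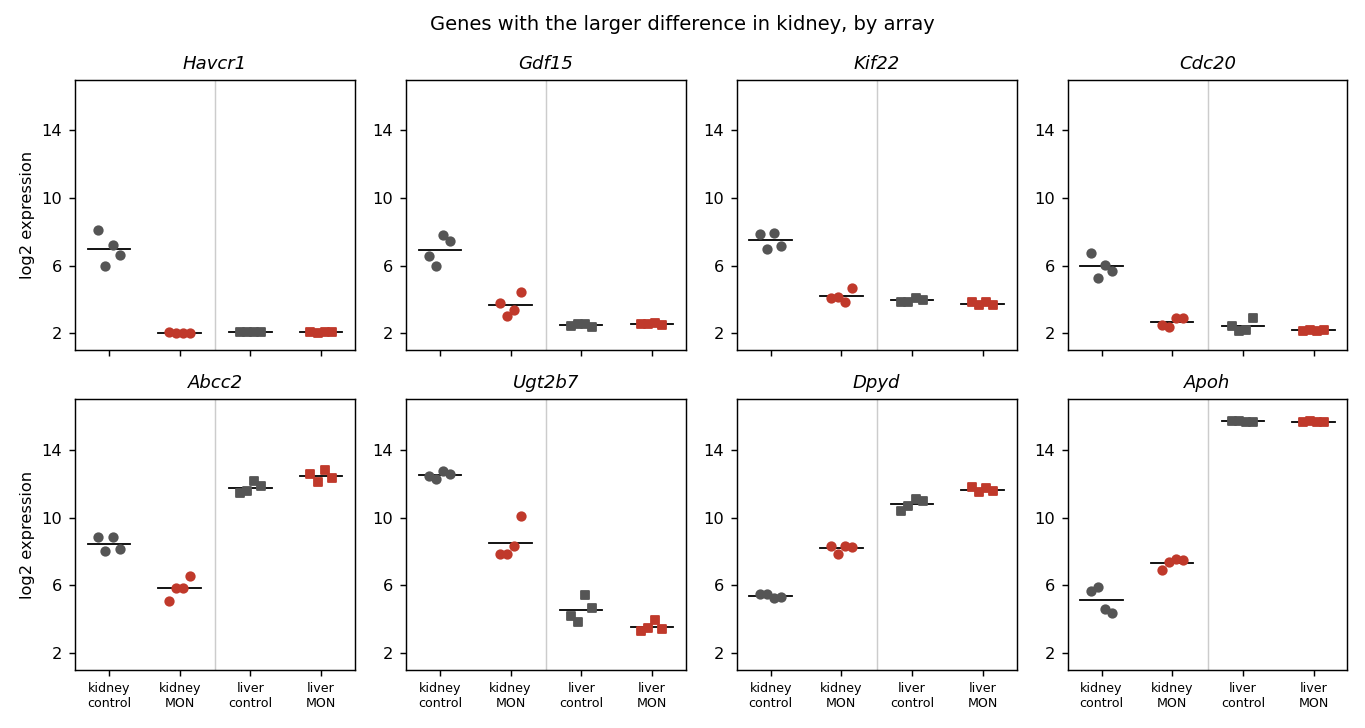
Log2 expression in each of the 16 arrays for 8 genes with the larger difference in kidney; each point is 1 array, circles are kidney and squares liver, red marks MON and grey control, and bars are group means of 4. Havcr1, Gdf15, Kif22, Cdc20, Abcc2 and Ugt2b7 were lower in every kidney MON array than in every kidney control array, and Dpyd and Apoh were higher.

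Of the 161 negative contrasts, 78 were in genes called in kidney alone, all of them higher there. Dpyd, the first enzyme of pyrimidine breakdown, was at 5.46, 5.45, 5.22 and 5.32 in kidney control and at 8.29, 7.86, 8.34 and 8.28 in kidney MON. In liver it rose less, from 10.38, 10.68, 11.12 and 10.96 to 11.83, 11.50, 11.72 and 11.55. The groups did not overlap in either organ, and the contrast was -1.96 (SE 0.21, adjusted p = 0.000151), with a kidney difference of 2.83 and a liver difference of 0.87 (adjusted p = 0.0352, up to 0.103 without any 1 liver array other than control replicate 3). The list of amino acid and pyrimidine breakdown held more such genes. Of 68 tested members, 23 rose and 0 fell in kidney (3.43% and 5.67% of all genes). In liver 3 rose and 1 fell (0.732% and 1.33%). The contrast was negative for 10 and positive for 0 (1.59% and 1.09% of all genes). The median difference of the list was 0.25 in kidney and 0.0037 in liver. The 23 became 12 without kidney MON replicate 3 and 11 or 13 without kidney control replicate 3 or 4, and the 10 became 6 without kidney MON replicate 4, kidney control replicate 3 or 4, or liver MON replicate 3. Among the 10 were Dmgdh, which breaks down dimethylglycine (-1.23, adjusted p = 0.00122), Upb1, the last enzyme of pyrimidine breakdown (-0.63, adjusted p = 0.00122), and Ahcy, which clears S-adenosylhomocysteine (-0.60, adjusted p = 0.00613). Acadsb, a dehydrogenase of branched-chain amino acids, rose by 2.41 in kidney.

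Several genes known for their expression in liver rose in kidney. Apoh, a plasma glycoprotein, was at 5.66, 5.88, 4.62 and 4.34 in kidney control and at 6.89, 7.37, 7.55 and 7.51 in kidney MON. Its 8 liver values lay between 15.63 and 15.74 with no shift, and the contrast was -2.24 (SE 0.36, adjusted p = 0.00332). Slc10a1, the bile acid importer NTCP, was at 3.28, 2.95, 3.01 and 2.96 in kidney control and at 5.41, 4.41, 5.78 and 5.67 in kidney MON (contrast -2.09, SE 0.30, adjusted p = 0.00122). As its kidney control values lay below the array medians, the limited contrast was -1.22 (adjusted p = 0.0342). The organic anion importer Slco1a1 was at 8.80, 9.57, 8.36 and 8.32 in kidney control and at 10.80, 10.74, 11.19 and 11.60 in kidney MON, and rose in liver by 0.47, a call that ended without any 1 liver array other than control replicate 3 (adjusted p up to 0.1; contrast -1.85, SE 0.32, adjusted p = 0.00539). The vitamin D binding protein gene Gc and the angiotensinogen gene Agt had contrasts of -1.74 (adjusted p = 0.00185) and -1.78 (adjusted p = 0.0254), Agt's ending without kidney MON replicate 3 or 4, kidney control replicate 3, or liver control replicate 1 or 2 (up to 0.0595). Rgn, a calcium-binding protein whose expression declines with age, had a contrast of -1.68 (adjusted p = 0.00539). Of 57 complement, coagulation and acute phase genes, 8 rose and 0 fell in kidney (3.43% and 5.67% of all genes), and 1 rose in liver (0.732%). The contrast was negative for 4 and positive for 1 (1.59% and 1.09%), and 28 of the 57 were near background in kidney. The 8 became 3 without kidney MON replicate 3 or kidney control replicate 3, and the 4 became 2 without kidney MON replicate 3. Among them were F2, prothrombin (-1.15, adjusted p = 0.0282, and up to 0.068 without kidney MON replicate 3 or 4, kidney control replicate 2 or 3, liver MON replicate 1 or 3 or liver control replicate 2), and Cfi, complement factor I (-1.33, adjusted p = 0.0168, limited -0.48 with adjusted p = 0.31).

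Hepatocyte markers varied between kidney arrays beside these genes. Alb was at 7.68, 7.5, 9.24 and 6.30 in kidney control and at 8.93, 10.54, 11.84 and 9.13 in kidney MON, with overlapping groups and no call (kidney difference 2.43, adjusted p = 0.072). Kidney MON replicate 3 held the highest value of Alb and also of Ttr (7.96), Serpina1 (5.98), Ahsg (6.57) and Apoa2 (4.40). Of the 20 list members, 15 had a higher mean in kidney MON than in kidney control, and the median difference was 0.351 (all genes -0.068). The mean was lower in kidney MON for 5. These were Fga (7.46 against 8.14 in control), Fgb (3.52 against 4.84), Cps1 (3.76 against 4.94), Cyp2e1 and Tdo2. The summed level ran from 13.33 to 14.13 in kidney MON and from 14.30 to 14.59 in kidney control, a sum set by Cyp2e1 (12.95 to 13.63 and 14.15 to 14.44). Without Cyp2e1 it ran from 11.21 to 12.66 in kidney MON and from 10.81 to 11.27 in control, highest in kidney MON replicate 3. Of the 20 members, 1 rose and 1 fell in kidney (3.43% and 5.67% of all genes) and 8 lay above the array median there. Apoa1, Tat, Tdo2 and Cyp7a1 were at the floor in all kidney arrays. The part of these markers in the rise of Apoh, Slc10a1 and the plasma protein genes was not tested. Without kidney MON replicate 3 the contrasts of Apoh, Slc10a1, Gc, Dpyd and Slco1a1 were still called, and those of Agt and F2 were not. Kidney MON replicate 2 held the next highest values of Alb (10.54), Ahsg (5.27) and Ambp (4.41). Leaving out replicate 3 alone is therefore no test of the part of these markers.

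Some proximal tubule markers were called. Of 15 tested, 3 rose and 0 fell in kidney (3.43% and 5.67% of all genes), and 1 rose and 1 fell in liver (0.732% and 1.33%). The contrast was negative for 3 and positive for 1 (1.59% and 1.09% of all genes). The 3 negative contrasts became 1 without kidney MON replicate 3, kidney control replicate 1 or liver MON replicate 1. The summed level in kidney ran from 18.26 to 18.42 in MON and from 18.18 to 18.28 in control. Cubn, the receptor cubilin that recovers filtered protein and vitamin B12, was at 11.54, 11.64, 11.38 and 11.69 in kidney control and at 12.47, 12.62, 12.55 and 12.62 in kidney MON, a rise of 1.01. It was near background in liver (2.16 to 2.44), and the contrast was -1.09 (SE 0.14, adjusted p = 0.000675, limited -0.97). Lrp2, its partner megalin, rose by 0.63.

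In liver the largest contrast was in Cyp1a1, the enzyme that AhR ligands induce. It was at 9.37, 8.75, 8.29 and 9.50 in liver control and at 4.38, 3.79, 2.42 and 6.49 in liver MON. In kidney the groups overlapped widely, with 6.80, 8.24, 8.21 and 5.31 in control and 6.37, 7.06, 5.66 and 8.83 in MON. The contrast of -4.55 (SE 1.15) passed narrowly (adjusted p = 0.0453) and was not called without any 1 array other than kidney MON replicate 3, kidney control replicate 2, liver MON replicate 4 and liver control replicate 3 (adjusted p up to 0.092). Its liver call ended without liver MON replicate 1 or 2 or liver control replicate 1, 2 or 4 (adjusted p up to 0.0869). Cyp1a2, another AhR target, had a liver difference of -0.25 (adjusted p = 0.351) at a mean of 14.65 in liver control. Of 5 tested AhR genes, 1 was called in each organ, both lower (1.33% of all genes fell in liver and 5.67% in kidney).

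Further genes fell in liver with little difference in kidney. Aldh1a1, which oxidises retinaldehyde and other aldehydes and was picked for its small p after the values were seen, was at 13.25, 13, 12.91 and 13.18 in liver control and at 11.13, 11.16, 11.19 and 10.79 in liver MON. In kidney it was at 13.98 to 14.03 and at 13.77 to 13.90, a small shift without overlap and without a call, and the contrast was -1.87 (SE 0.12, adjusted p = 4.52e-07, 95% interval -2.12 to -1.61). Akr7a3, a reductase that detoxifies aflatoxin aldehydes, was at 13.49, 13.26, 13.33 and 13.05 in liver control and at 10.83, 10.95, 11.72 and 11.02 in liver MON, with kidney values of 13.77 to 14.66 in overlapping groups (contrast -1.83, SE 0.26, adjusted p = 0.00122). Gclc, the rate-limiting enzyme of glutathione synthesis, was at 11.20, 11.48, 10.91 and 10.99 in liver control and 10.11, 9.96, 10.43 and 10.31 in liver MON. Its kidney values were 14.58, 14.81, 14.47 and 14.37 against 14.74, 14.89, 14.81 and 15.06, leaning upward without a call, and the contrast was -1.26 (SE 0.18, adjusted p = 0.00135). The liver calls of Aldh1a1 and Akr7a3 held in each fit with 1 array left out, and that of Gclc did not (adjusted p up to 0.086 without liver MON replicate 1 or liver control replicate 1, 2 or 4).

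Genes of fatty acid oxidation were called lower in liver and in both directions in kidney. Of 52 tested targets of PPARalpha and genes of the pathway, 10 fell and 0 rose in liver (1.33% and 0.732% of all genes). In kidney 8 fell and 5 rose (5.67% and 3.43%). The contrast was negative for 9 and positive for 0 (1.59% and 1.09% of all genes). The median difference was -0.25 in liver and -0.015 in kidney. Crat, the carnitine acetyltransferase, was at 8.02, 7.44, 7.17 and 7.03 in liver control and at 5.75, 6.07, 5.63 and 6.03 in liver MON, and at 10.21 to 10.43 in kidney with overlapping groups (contrast -1.46, SE 0.23, adjusted p = 0.00323). Acot4 and Ech1, a thioesterase and an isomerase of peroxisomes and mitochondria, had contrasts of -0.96 (adjusted p = 0.00647) and -0.72 (adjusted p = 0.0204), and Decr2, a peroxisomal reductase, -0.76 (adjusted p = 0.00296). These contrasts were called in all 16 fits that left out 1 array, while the liver calls of Crat, Acot4 and Ech1 ended without liver MON replicate 1 or liver control replicate 2, among others (adjusted p up to 0.0769, 0.0769 and 0.086). Decr2 differed in both organs. It was at 11.6 to 11.8 in liver MON against 11.9 to 12.3 in control, and at 12.6 to 12.7 in kidney MON against 12.2 to 12.4. The count of 10 in liver rested on single arrays. It was 0, 5 or 2 without liver MON replicate 1, 2 or 3, and 1, 1 or 3 without liver control replicate 1, 2 or 4. The 9 contrasts became 4 without kidney MON replicate 3 or kidney control replicate 1, and 5 without kidney control replicate 4, liver MON replicate 2 or liver control replicate 2. In kidney the 5 that rose became 1 without kidney MON replicate 1 or 3 or kidney control replicate 3 or 4, and 2 or 3 without any 1 of the other kidney arrays, and the 8 that fell became 5 without kidney MON replicate 1 or kidney control replicate 3.

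Markers of other cell types stood higher in some liver MON arrays beside these liver changes. All 15 macrophage markers had a higher mean in liver MON (median 0.219), with a summed level of 13.92 to 14.07 in MON and 13.60 to 13.93 in control. The same was so for 6 of 7 tested lymphocyte and neutrophil markers (8.93 to 9.68 against 8.58 to 8.79), 11 of 13 fibroblast and stellate markers (12.97 to 13.42 against 12.78 to 13.03) and 9 of 15 endothelial markers (12.81 to 13.02 against 12.62 to 12.84). Of all these, 1 endothelial gene was called in liver, and the summed hepatocyte markers were at 19.62 to 19.67 and 19.62 to 19.64. In kidney, all 7 lymphocyte and neutrophil markers also had a higher mean in MON (median 0.175), summed at 8.02 to 8.15 against 7.63 to 7.92. Kidney MON means were higher for 7 of 15 macrophage, 7 of 13 fibroblast and stellate and 5 of 15 endothelial markers. The part of these markers in the liver results was not tested.

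Some liver contrasts concerned genes that kidney hardly expressed. Nr1i3, the receptor CAR itself, was at 9.66, 9.35, 9.67 and 9.73 in liver control and at 8.14, 8.78, 7.96 and 7.67 in liver MON, while all kidney arrays lay at the floor (2.06 to 2.11). The contrast of -1.48 (SE 0.26, adjusted p = 0.00547, limited -1.46) therefore repeats the liver difference. The same holds for Pcp4l1, a small calmodulin-regulating protein, at 9.26, 9.31, 9.48 and 9.24 in liver control and 5.01, 5.43, 7.63 and 6.94 in liver MON (contrast -3.11, SE 0.55, adjusted p = 0.00613, limited -3.06), and for the glucuronosyltransferase Ugt2b1 (-0.85, adjusted p = 0.00539, limited -0.78). The liver calls of these 3 genes ended without liver control replicate 1, and those of Nr1i3 and Pcp4l1 also without liver MON replicate 1 or liver control replicate 4, among others (adjusted p up to 0.0815, 0.0979 and 0.0532 for Nr1i3, Pcp4l1 and Ugt2b1). Of 27 tested CAR and PXR genes, 4 fell in liver and 2 in kidney (1.33% and 5.67% of all genes, so that the kidney count is near the background). Near background in kidney were 15, and the contrast was negative for 2 and positive for 1 (1.59% and 1.09% of all genes). The 4 became 2 without liver MON replicate 1 and 1 without liver control replicate 1.

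Fewer genes rose in liver. Socs2, a feedback inhibitor of growth hormone signalling, was at 4.56, 4.95, 6.63 and 5.93 in liver control and at 7.41, 8.54, 8.26 and 7.72 in liver MON, and near background in kidney (contrast 2.50, SE 0.49, adjusted p = 0.012, limited 2.47). Its liver difference of 2.47 was not called without any 1 liver array other than control replicate 3 (adjusted p up to 0.102). The water channel gene Aqp1 was at 3.68, 3.85, 3.32 and 3.92 in liver control and at 6.15, 6.69, 5.00 and 5.35 in liver MON, with kidney values of 13.50 to 13.93 that overlapped. Its contrast of 2.08 (SE 0.38, adjusted p = 0.00707) was not found with another probe set of the gene (-0.11, adjusted p = 0.848), and its liver call ended without liver MON replicate 1 or liver control replicate 1, 2 or 4 (up to 0.0919). C6, a complement component, rose in liver by 1.70 (contrast 1.3, adjusted p = 0.0154, limited 1.70), the zinc transporter gene Tmem163 by 1.63 (contrast 1.81, adjusted p = 0.00122), the muscle adaptor gene Stac3 by 2.06 (contrast 2.10, adjusted p = 0.00394, limited 2.07), and the glucocorticoid receptor gene Nr3c1 by 0.63 (contrast 0.69, adjusted p = 0.0131). C6 and Stac3 were near background in kidney. The liver calls of C6 and Tmem163 held with each array left out, and those of Stac3 and Nr3c1 ended without liver MON replicate 1 or 3 or liver control replicate 1 or 4 (adjusted p up to 0.0801 and 0.086).

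Some genes were called in both organs. Both organs were called in the same direction for 41 genes (0.405%), 16 higher and 25 lower, which is 19.6% of the liver list and 4.46% of the kidney list. In 4 of the 41 the contrast was also called: Gsta3, Dpyd, Fhit and Slco1a1. Without overlap between MON and control in both organs and in the same direction were 288 genes (2.85%), against 38 (0.376%) in opposite directions. The 41 became 21 without kidney MON replicate 3 or kidney control replicate 3, 8, 20 or 14 without liver MON replicate 1, 2 or 3, 7, 9 or 8 without liver control replicate 1, 2 or 4, and 63 without liver control replicate 3. With the spread taken from all 16 arrays, as in the fit of the contrasts, 141 genes were called in the same direction, 46 higher and 95 lower.

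Antioxidant genes under NRF2 were among those called in both organs. Of 35 tested members, 11 fell and 0 rose in liver (1.33% and 0.732% of all genes) and 12 fell and 1 rose in kidney (5.67% and 3.43%). In both organs 5 fell, where 0.405% of all genes were called in the same direction: Gsta3, Gpx2, Srxn1, Txnrd1 and Ephx1. The median difference was -0.38 in liver and -0.44 in kidney, and 4 members had a called contrast (Abcc2 positive; Gclc, Gsta3 and Akr7a3 negative). The 11 in liver became 5 or 7 without liver MON replicate 1 or 3 and 5, 7 or 6 without liver control replicate 1, 2 or 4, while the 12 in kidney ran from 10 to 15. Gsta3, a glutathione transferase, was at 10.24, 9.81, 10.96 and 10.97 in liver control and at 7.53, 7.61, 6.98 and 7.30 in liver MON. In kidney it was at 9.00, 8.92, 9.36 and 9.15 in control and at 8.04, 7.72, 7.43 and 8.34 in MON. It thus fell in both organs and by more in liver (contrast -1.92, SE 0.35, adjusted p = 0.00697).

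For the other shared antioxidant genes the organs were not shown to differ. Gpx2, a glutathione peroxidase of epithelia, was at 7.45, 5.71, 6.68 and 7.14 in liver control and at 2.27, 3.99, 3.16 and 3.14 in liver MON, and at 11.39, 11.32, 11.80 and 11.32 in kidney control and 9.36, 9.35, 9.03 and 10.22 in kidney MON. Its contrast was -1.64 (95% interval -2.74 to -0.53, adjusted p = 0.113). The liver MON values of 2.27, 3.16 and 3.14 lay below the mean of the liver array medians (3.71), so the sizes of its liver difference and contrast rest on dim values. The liver call held with limited values. Srxn1, which repairs oxidised peroxiredoxins, was at 8.75, 9.31, 9.30 and 8.64 in liver control and 7.08, 7.38, 7.03 and 8.05 in liver MON, and at 9.68, 9.48, 10.13 and 9.40 in kidney control and 5.73, 5.40, 5.79 and 7.81 in kidney MON (contrast 1.88, 95% interval 0.68 to 3.07, adjusted p = 0.0927). Both intervals leave out 0 while the adjusted p misses the threshold. In 1 of the 16 fits that left out 1 array the contrast of Gpx2 was called (adjusted p = 0.0386). That of Srxn1 was also called in 1 of the 16 (adjusted p = 0.00127). Ephx1, the microsomal epoxide hydrolase, fell by 0.78 in liver and by 0.68 in kidney, with no overlap in either organ, and its contrast of -0.10 had an interval from -0.37 to 0.17. Txnrd1, a thioredoxin reductase, fell by 0.75 and 0.69, the kidney call ending without kidney control replicate 3 (adjusted p = 0.0509). Nqo1, the quinone reductase, fell by 2.93 in kidney and was at 9.28 to 10.82 against 10.99 to 12.17 in liver, with no overlap and a liver adjusted p of 0.0559 (contrast 1.34, 95% interval 0.33 to 2.35, adjusted p = 0.159). The liver calls of Srxn1 and Txnrd1 ended without liver MON replicate 1, 2 or 3 or liver control replicate 1, 2 or 4 (adjusted p up to 0.086 and 0.106). Kidney MON replicate 4 was the kidney MON array nearest to control in Gsta3, Gpx2, Srxn1, Ephx1 and Nqo1.

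NRF2 is known to bind the antioxidant response element together with small Maf proteins. Its core letters, TGACNNNGC, were searched on both strands of the same 250 bases. They were found for 10 of the 32 tested NRF2 genes with a promoter entry, against 13.3% of the tested genes with one and 10.1% of all promoters. The last 100 bases before the start are shown for Gsta3 (chr9:31154889-31154988, plus strand, 1 of its 2 entries) and Gpx2 (chr6:101230034-101230133, minus strand), with the motif or its reverse complement in capitals.
Gsta3: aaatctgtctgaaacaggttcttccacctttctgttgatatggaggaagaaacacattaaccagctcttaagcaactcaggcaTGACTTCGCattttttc
Gpx2: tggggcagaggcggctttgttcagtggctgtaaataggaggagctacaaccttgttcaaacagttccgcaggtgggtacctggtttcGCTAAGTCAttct
The motif began 17 and 13 bases before the start in Gsta3 and Gpx2.

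Among genes that rose in both organs, Fhit, a tumour suppressor gene that hydrolyses dinucleoside polyphosphates, was at 4.85, 4.33, 4.11 and 4.70 in kidney control and at 7.11, 6.57, 7.08 and 6.40 in kidney MON. In liver it was at 2.79, 3.04, 2.80 and 2.79 in control and at 3.91, 4.18, 3.92 and 3.86 in MON. It rose in both organs and by more in kidney (contrast -1.18, SE 0.27, adjusted p = 0.0282), but its liver values lay around the array medians: the liver call was lost with limited values (adjusted p = 0.0809), and the limited contrast was -2.02. The contrast was not called without kidney MON replicate 1 or 3, kidney control replicate 2 or 3, liver MON replicate 1 or liver control replicate 2 (adjusted p up to 0.0645). The growth hormone receptor gene Ghr rose by 0.48 in liver and 0.66 in kidney (contrast -0.18, 95% interval -0.41 to 0.05), and Mmut, the mitochondrial methylmalonyl-CoA mutase, by 0.49 and 0.91 (contrast -0.42, 95% interval -0.76 to -0.08, adjusted p = 0.199). Nnmt, which methylates nicotinamide, rose by 0.71 and 0.74. The liver calls of Ghr, Mmut and Nnmt ended without liver MON replicate 1 or liver control replicate 1, 2 or 4 (adjusted p up to 0.0619, 0.105 and 0.077), and that of Mmut also without liver MON replicate 2 or 3.

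A single gene was called in opposite directions, Anxa1, an anti-inflammatory phospholipid-binding protein. It was at 7.24, 7.12, 6.58 and 7.32 in liver control and at 8.46, 7.98, 8.56 and 7.84 in liver MON, and at 12.19, 12.21, 12.33 and 12.43 in kidney control and 12.10, 11.92, 11.85 and 11.93 in kidney MON. The kidney shift of -0.34 was small beside the liver rise of 1.14, and the contrast was 1.48 (SE 0.23, adjusted p = 0.00292). The liver call ended without liver MON replicate 1, 2 or 3 or liver control replicate 1, 2 or 4 (adjusted p up to 0.114), and the kidney call without kidney MON replicate 2 or 3 or kidney control replicate 3 or 4 (up to 0.0851).

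**Figure D3:**
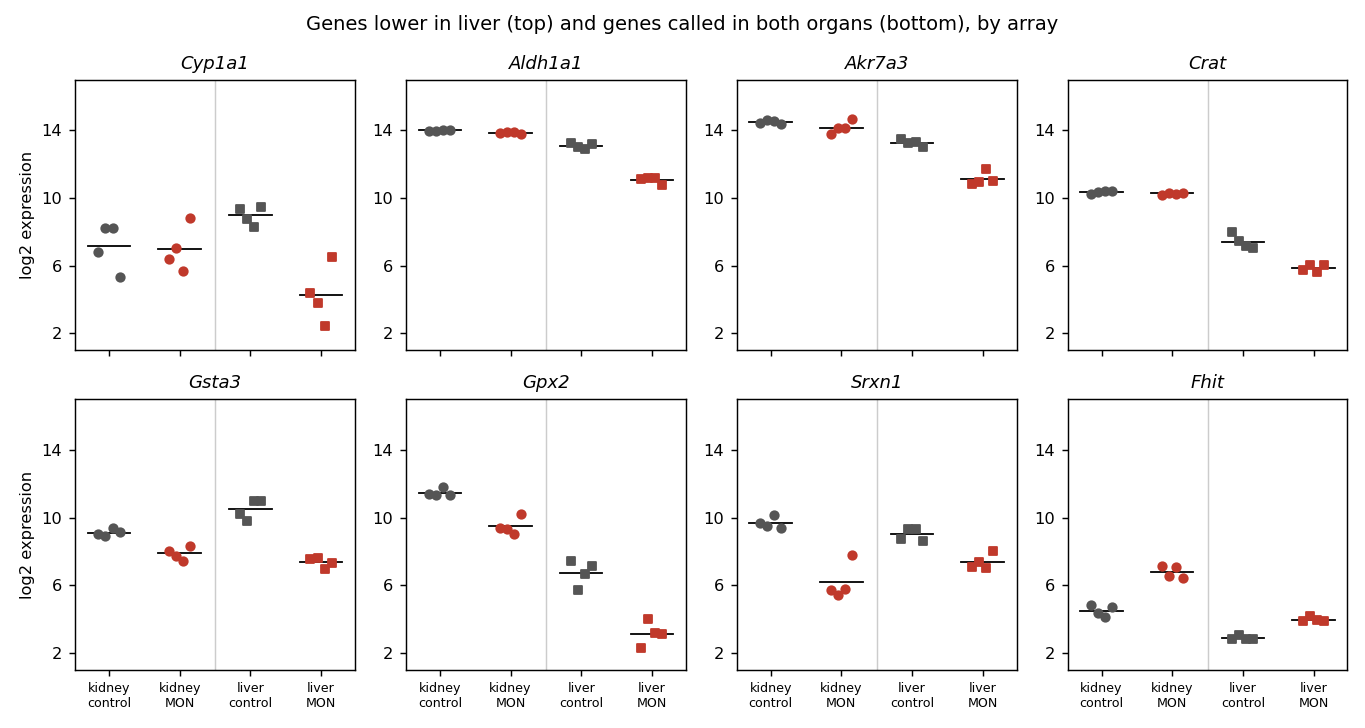
Log2 expression in each of the 16 arrays for 4 genes that fell in liver (top: Cyp1a1, Aldh1a1, Akr7a3, Crat) and 4 called in both organs (bottom: Gsta3, Gpx2, Srxn1, Fhit); points are arrays, circles kidney and squares liver, red MON and grey control, and bars are group means of 4. The liver groups do not overlap in any of the 8 genes, and the kidney groups do not overlap in the bottom row.

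**Figure D4:**
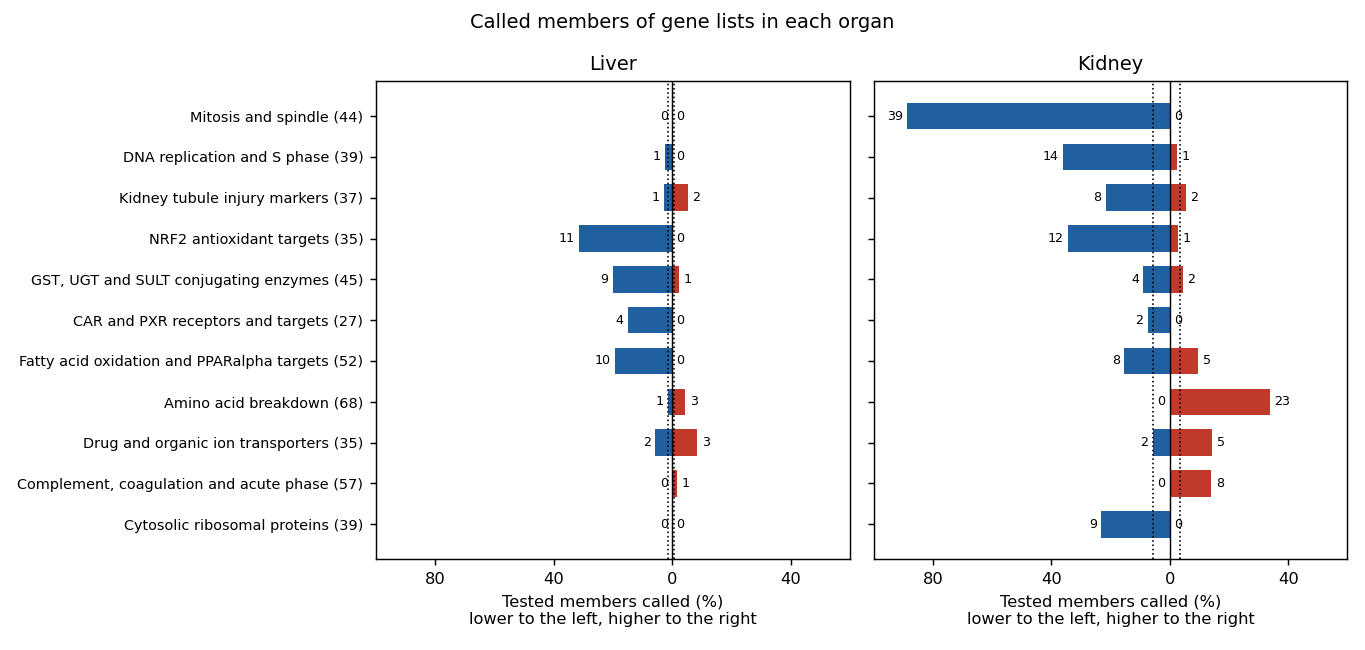
Share of the tested members of 11 gene lists that were called in liver (left) and kidney (right), higher in red to the right of 0 and lower in blue to the left, with the number of called members at each bar and of tested members in the list name. Dotted lines mark the share over all 10114 genes, which is 1.33% lower and 0.732% higher in liver and 5.67% lower and 3.43% higher in kidney.

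Genes called higher differed in length from genes called lower, a description chosen after the values were seen. RefSeq (GRCr8) gave a genomic length for 10107 of the 10114 genes. Of 79 genes of 500 kb or more, 25 rose and 2 fell in kidney (31.6% and 2.53%), and 6 rose and 0 fell in liver (7.59% and 0%). Of 4465 genes under 20 kb, 72 rose and 388 fell in kidney (1.61% and 8.69%), and 19 rose and 84 fell in liver. The median difference ran from -0.113 in the shortest class to 0.23 in the longest in kidney, and from -0.095 to 0.08 in liver. The 25 became 16 or 15 without kidney MON replicate 1 or 3 and 14 or 15 without kidney control replicate 3 or 4 (1.41% of all genes rose without kidney control replicate 3). The 6 in liver became 1, 3 or 3 without liver MON replicate 1, 2 or 3, 1, 2 or 1 without liver control replicate 1, 2 or 4, and 10 without liver control replicate 3. With no filter on dim probe sets, 19 of 162 long genes rose in kidney and 3 in liver. Of all 14217 genes in that setting, 242 (1.7%) rose in kidney and 30 in liver. The median kidney difference of the long genes was then 0.033 (all genes 0.003). The long genes included Fhit (1508 kb), Pde4d (1514 kb), Ccser1 (1237 kb), Wwox (931 kb) and Dpyd (866 kb). Ccser1, a coiled-coil gene, had a contrast of -1.97 (limited -1.64) and Fgf13, an intracellular relative of growth factors (526 kb), -2.30 (adjusted p = 0.000333, limited -2.21), both near background in liver. Pde4d, a cAMP phosphodiesterase, and Wwox, another tumour suppressor gene, rose in both organs, by 1.12 and 1.27 in liver and 0.53 and 0.40 in kidney, and both calls of each gene ended without some single arrays of that organ (adjusted p up to 0.0815 and 0.0731 for Pde4d in liver and kidney and 0.114 and 0.116 for Wwox).

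**Figure D5:**
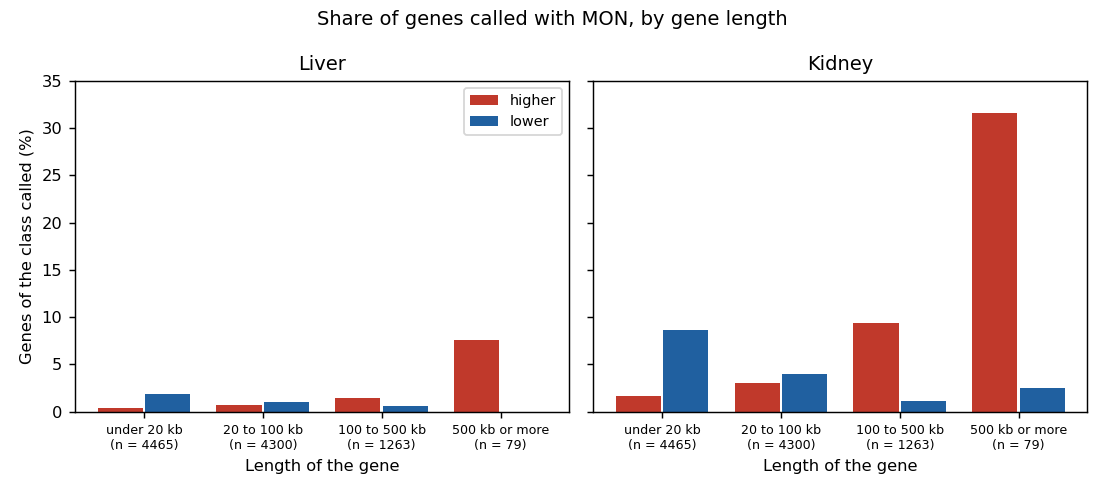
Share of genes called higher (red) or lower (blue) with MON in liver (left) and kidney (right), by the genomic length of the gene in 4 classes, with the number of genes tested under each class. In kidney the share called higher goes from 1.61% to 31.6% from the shortest to the longest class, and the share called lower from 8.69% to 2.53%.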

How the data were processed

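RNA from 8 liver and 8 kidney samples was hybridised to Affymetrix rat expression arrays, 1 array per sample. The deposited table holds log2 values per probe set that the authors made with GCRMA, per the submitters' processing notes; its version is not given in the sources used here. Quantiles of arrays differed by 0.037 on average within liver, 0.027 within kidney and 0.149 between organs, so the organs were compared through their differences alone. Arrays have no read depth, and 4 arrays per group limit the precision. The labels call the samples biological replicates; p-values measure the spread between them.

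Of 31099 probe sets, 57 controls were left out; 20826 carried 1 gene symbol in the array annotation, 436 several and 9780 none. Each of 14217 genes was read from its brightest probe set (highest mean over the 16 arrays), and 10114 genes above the median of their array on at least 4 of 16 arrays were tested. Contrasts came from 1 limma fit of the 4 group means (limma 3.58.1, R 4.3.3, lmFit, eBayes with trend), organ differences from limma fits of 8 arrays each. Tests are two-sided, with Benjamini-Hochberg adjustment over all genes tested and a threshold of 0.05. SE is limma's moderated standard error. The functions were tested on simulated data.

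Named genes are a part of those given by a rule: the largest contrasts, the shared calls, up to 4 members of each gene list and a fixed panel. Kif20a, Ccnb1, Myc, Egr1, Acadsb, Gc, Agt, Lrp2, Aldh1a1, Tmem163, Stac3, Slc22a5, Txnrd1, Wwox, Cbl and Fam120b fall outside it and were chosen after their values were seen, as were the classes of gene length. The comparison, the lists and the rule were chosen with earlier results of these data known. Alternatives changed the scaling, the filter, the probe set, the moderation, array weights, the replicate block and the arrays left out.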

Additional observations from a re-analysis of the deposited data

Results flagged for a closer look

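In 25 of the 32 genes given array by array, the monuron difference differed between liver and kidney in the limma test of that contrast (adjusted p under the threshold). For Havcr1, Gdf15 and Cdc20, which passed the filter through the kidney control arrays alone, this is a description. The contrast, liver minus kidney on the log2 scale, was positive in Havcr1 (4.97), Gdf15 (3.36), Abcc2 (3.32), Kif22 (3.12), Cdc20 (3.03), Ugt2b7 (2.96), Abca1 (2.51), Socs2 (2.5), Aurka (2.33), Aqp1 (2.08) and Anxa1 (1.48). It was negative in Cyp1a1 (-4.55), Pcp4l1 (-3.11), Apoh (-2.24), Slc10a1 (-2.09), Dpyd (-1.96), Gsta3 (-1.92), Aldh1a1 (-1.87), Slco1a1 (-1.85), Akr7a3 (-1.83), Nr1i3 (-1.48), Crat (-1.46), Gclc (-1.26), Fhit (-1.18) and Cubn (-1.09).

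In 6 of the 128 groups of 4 arrays of these genes, 1 array stood apart from the other 3 by Dixon's criterion, which chance flags in about 1 of 20 groups. Srxn1 was at 7.81 in kidney MON replicate 4 (5.4 to 5.79 in the others). Dpyd was at 7.86 in kidney MON replicate 2 (8.28 to 8.34), and Gpx2 was at 11.8 in kidney control replicate 3 (11.32 to 11.39). Abca1 was at 10.59 in liver control replicate 1 (10.94 to 11), Aldh1a1 at 10.79 in liver MON replicate 4 (11.13 to 11.19) and Fhit at 3.04 in liver control replicate 2 (2.79 to 2.8).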

How the results depend on the processing

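The contrast was called for 271 genes, and for 130 of them at a size of at least 1 (39 and 157 in liver and kidney). It gave 442 with array weights, 280 with limited values, 253 with arrays centred on their medians, 249 with the most variable probe set, 212 with no filter on dim probe sets, 210 with no mean-variance trend and 205 with a filter in each organ. The 209 liver calls became 94 with no filter, 111 with no trend and 1160 with the spread taken from all 16 arrays. The 41 shared calls became 19, 22 and 141 in those fits, and 67 with a filter in each organ. Genes called in opposite directions (1) were 2 with centred arrays, 5 with a filter in each organ, 10 with the spread of all 16 arrays, and 0 with no filter or no trend. Leaving out 1 array gave 143 to 502 contrasts, 23 to 423 liver calls, 321 to 921 kidney calls, 7 to 63 shared calls and 0 to 3 opposite calls. The contrast of Aqp1 became -0.1089 with its most variable probe set. The cause of these changes was not tested.

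With the replicate number as a replicate block, 117 contrasts, 15 liver calls, 273 kidney calls, 5 shared and 0 opposite calls were found. A fixed block for each treatment and number, over both organs, gave 193 contrasts. Deviations of liver and kidney arrays of the same treatment and number correlated at 0.021 to 0.158 (unlike numbers at most 0.03). Those of MON and control arrays of the same organ and number correlated at -0.198 to 0.045. Not every pair passed 0.1 and no label ties the organs, so the numbers were not taken to pair the samples. This cut does not show that the liver and kidney arrays of a number are from different rats. As a hint from the data, 7 of the 8 liver and kidney pairs lay above every unlike-numbered pair. With the block over both organs 158 of the 271 contrasts were still called. Of the contrasts named, those of Fhit (adjusted p = 0.0673) and Ccnb1 (0.0798) ended while that of Srxn1 was called (0.0221). Array signals near background limit the contrasts of genes that 1 organ hardly expresses.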
